A study of Mus musculus with 32 samples.

Results

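Glycolysis and the lactate shuttle were followed here through 34 genes, out of 27842 genes or single probes that could be named on the arrays. They comprise glucose and lactate carriers, the enzymes from hexokinase to pyruvate kinase, lactate dehydrogenase, the pyruvate dehydrogenase complex, glycogen enzymes and cytosolic glycerol-3-phosphate dehydrogenase. Members were found by gene symbol or synonym among the non-control probes, which gave 64 of 41174 probes, and each gene was read from its brightest probe. Genes were matched by name without a measured value, but the brightest probe was picked by measured intensity. The gene list was set with earlier results of these data known.

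The arrays hybridised RNA from cells cut by laser from frozen, Nissl-stained lumbar spinal cord of female mice, with 500 motor neurons or 500 surrounding glial cells taken per mouse. Transgenic mice of the SOD1-G93A line (B6SJL-Tg(SOD1-G93A)1Gur, 8 weeks old) were paired with nontransgenic B6SJL littermates, and mice of the TAU-P301L line (B6D2F1-Tg(TAU-P301L), 16 weeks old) with nontransgenic B6D2F1 littermates. The comparisons are named SODmn and TAUmn for motor neurons and SODgl and TAUgl for glia, with 4 littermate pairs each, and each pair lay on 2 Agilent arrays with the dyes exchanged. Line, strain and age differ together between the models, and the labels name neither the promoter that drives a transgene nor a marker by which glia were chosen beyond their position around motor neurons.

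Glycolysis splits glucose to pyruvate in the cytosol. Pyruvate is either carried into mitochondria and turned to acetyl-CoA by pyruvate dehydrogenase, or reduced to lactate by lactate dehydrogenase. In nervous tissue many steps have isozymes with different cellular homes: aldolase C and brain glycogen are classically assigned to astrocytes, and enolase 2 (neuron-specific enolase) and the glucose carrier GLUT3 to neurons. The lactate shuttle is the proposed transfer of lactate from glia to neurons through the monocarboxylate transporters MCT1, MCT4 and MCT2. MCT1 has been studied in this setting because oligodendrocytes use it to supply motor axons.

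One array, that of SODmn pair 3 with the transgenic extract in Cy3, did not follow the others: its signals correlated with theirs at r = -0.00784, against 0.744 to 0.977 for the rest. It was left out, so that 15 of 16 pairs entered, 3 of them in SODmn, with 7 control extracts of motor neurons and 8 of glia. Between 9.09% and 79.3% of probes per channel lay well above background, and the number of arrays limits the precision. The dye-exchanged arrays of SODgl pair 2 (r = -0.46) and TAUgl pair 1 (r = -0.74) opposed each other most, over the genes tested in their comparison. Correlations were also below 0 in TAUmn pair 3 (-0.21), TAUgl pair 3 (-0.091) and SODgl pair 1 (-0.081), and ran from 0.083 to 0.68 in the rest. Prnp, the prion protein gene, was above 0 on 16 of 16 TAU-P301L arrays once the dyes were turned, so those arrays were turned alike. Since the labels name no promoter for the transgene, the direction itself is not checked by this. No probe for the human SOD1 transgene was used. Captured motor neurons had higher signal than glia for 10 of 13 tested motor neuron markers, including Snap25 (2.24 log2 units) and Nefl (1.81), and lower signal for 7 of 9 oligodendrocyte and 5 of 11 astrocyte markers, with 1 astrocyte marker higher. Against the label, Chat (-0.05) and Isl1 (-0.36) did not pass the test, and Mnx1 (-0.36, adjusted p = 0.00376) was lower in motor neurons. Interneuron markers were also higher in the motor neuron captures, 6 of 7 tested, led by Penk (1.19), and their part in the results below was not tested.

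The first comparison asked how the pathway is distributed between motor neurons and glia of nontransgenic mice. Of the 27 members bright enough to test, 13 had higher signal in motor neurons and 2 had higher signal in glia (limma, Benjamini-Hochberg adjusted p under 0.05 over all genes). Over all 12828 genes tested, 33.9% were called higher in motor neurons and 13% in glia, or 46.9% in all. Slc2a3 and Pfkl entered the test only through motor neurons, where they were higher, so that their calls carry no support, and 11 members were called higher in motor neurons with detection required in both cell types. The median difference was 0.30 log2 units for the members and 0.12 for all genes, and 22 of the 27 members lay above 0. Motor neurons and glia were hybridised on different scans, with 2 versions of the scanner software in the file headers, so cell type and scan cannot be told apart. In captured tissue, fewer cells of a type and less RNA per cell cannot be told apart either. With the stray array included, 6 members in place of 13 were called higher in motor neurons. In the TAU-P301L colony alone that number was 7. The 33.9% of all genes holds for the main setting, so the counts of 11, 6 and 7 members have no share of all genes beside them.

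The largest differences lay at or below the aldolase step. Aldoa encodes the muscle-type aldolase that splits fructose-1,6-bisphosphate. Its control values in motor neurons were 13.01 and 12.85 in SODmn pairs 1 and 2, and 12.82, 13.12 and 13.24 in TAUmn pairs 1, 2 and 4, on the normalized log2 intensity scale. In glia they ran from 11.18 over a median of 11.62 to 11.78 (n = 6). The 2 cell types did not overlap. The difference was 1.44 ± 0.12 (SE), or 2.72-fold, with an adjusted p of 2.45e-05, and a second Aldoa probe gave 1.36.

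Pkm, which encodes pyruvate kinase, the last step, ranged from 8.08 over 8.58 to 9.04 in motor neurons and from 6.48 over 7.36 to 7.71 in glia. Every motor neuron extract exceeded every glia extract. The difference was 1.47 ± 0.21, or 2.76-fold (adjusted p = 0.000126). Eno2, neuron-specific enolase, ranged from 8.72 over 9.28 to 9.82 in motor neurons and from 7.35 over 7.78 to 8.45 in glia, again without overlap. Its difference was 1.44 ± 0.18, or 2.71-fold (adjusted p = 5e-05). Aldoa, Pkm and Eno2 kept their call under all 27 alternative settings tried for this comparison.

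Tpi1, triosephosphate isomerase, interconverts the 3-carbon products of aldolase. It was at 9.54 to 10.08 in motor neurons and 8.66 to 9.49 in glia, without overlap, a difference of 0.80 ± 0.11 (adjusted p = 9.34e-05). Pgk1 makes the first ATP of the pathway. Its motor neuron extracts (9.52, median 10.23, 10.63) overlapped the highest glia extract (8.11, median 9.04, 9.66), with a difference of 1.19 ± 0.20 (adjusted p = 0.000464). Pgam1, phosphoglycerate mutase, ran from 9.99 over 10.44 to 11.01 in motor neurons and from 8.88 over 9.57 to 10.06 in glia, a difference of 0.98 ± 0.17 (adjusted p = 0.000463). Each of these enzymes lost its call under at most 1 alternative. Gapdh, which acts between Tpi1 and Pgk1, was represented by a single dim probe, above background in 0 of 7 motor neuron and 2 of 8 glia control extracts, and was not tested. Gapdh has many processed copies in the genome, so this probe is uncertain.

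**Figure D1:**
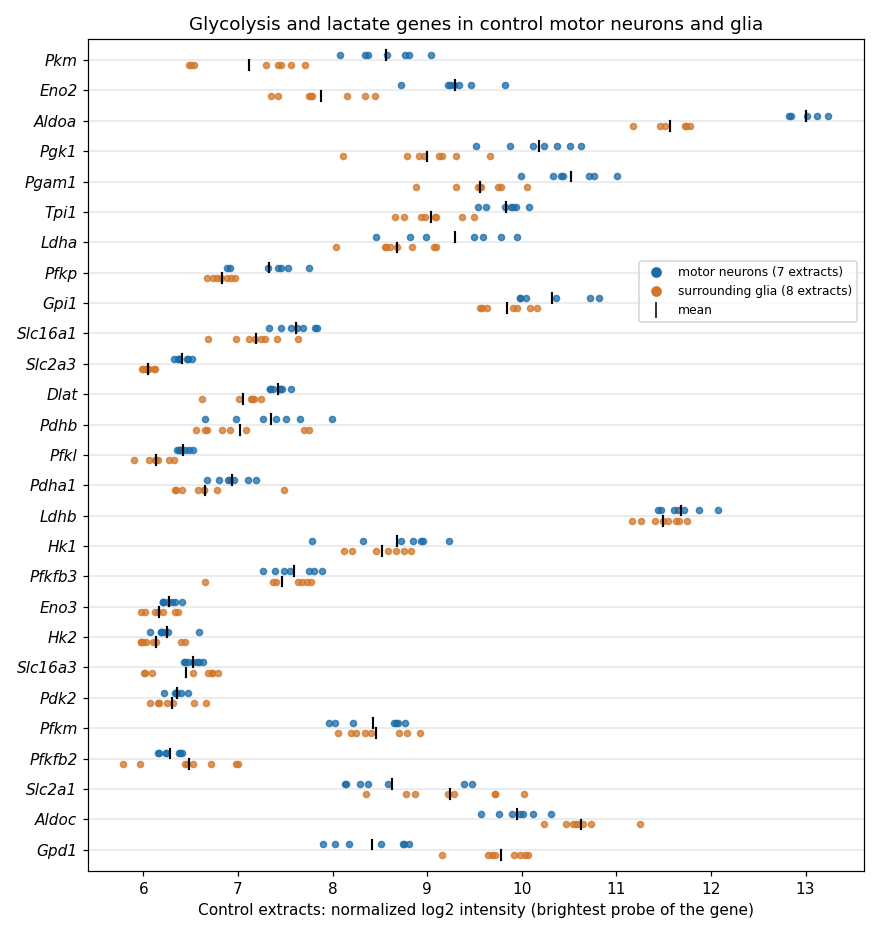
Normalized log2 intensity of the 27 tested members in the control extracts, with 1 point per extract (motor neurons, 7 extracts; glia, 8 extracts) and the mean as a bar. Aldoa, Tpi1, Eno2 and Pkm show motor neuron points wholly above the glia points, and Gpd1 the reverse, a difference that shrinks under percentile scaling. Levels of different genes come from different probes and are not comparable.

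At the steps above aldolase differences were smaller. Pfkp and Pfkl encode platelet and liver phosphofructokinase, which commit sugar to glycolysis. Pfkp was 0.50 ± 0.12 higher in motor neurons (adjusted p = 0.00512), with 6.88 to 7.75 against 6.67 to 6.97 and so with overlap. Pfkl was 0.30 ± 0.06 higher (adjusted p = 0.0016), without overlap (6.36 to 6.52 against 5.90 to 6.32), but near the floor of the arrays, and above background in 5 of 7 motor neuron and 2 of 8 glia extracts, so that it too passed the filter only through motor neurons. The muscle form Pfkm did not pass the test, at -0.02 ± 0.16. Gpi1, glucose-6-phosphate isomerase, was 0.45 ± 0.13 higher in motor neurons (adjusted p = 0.0122) but gave 0.09 when its dimmer second probe was averaged in (adjusted p = 0.845). Hexokinases did not pass the test: Hk1 differed by 0.17 ± 0.20 and Hk2 by 0.11 ± 0.09. A second Hk1 probe, above background in most extracts, gave -0.43 where the brightest gave 0.17. The enzymes that set fructose-2,6-bisphosphate, the activator of phosphofructokinase, did not pass either (Pfkfb2 -0.20 ± 0.16 and Pfkfb3 0.15 ± 0.16), and their probes disagreed in sign.

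Carriers at the start and end of the route were read from dimmer probes. Slc2a3, the neuronal glucose carrier GLUT3, was well above background in 6 of 7 motor neuron controls and in 0 of 8 glia controls. Its values were 6.32 to 6.51 in motor neurons and 5.99 to 6.12 in glia, and because the glia values are only a bound, it was at least 1.24-fold higher in motor neurons (adjusted p = 1.65e-05 for a probe that passed the filter only there). Its 2 other probes, both dim, gave -0.14 and -0.10. Slc2a1, the GLUT1 carrier of endothelium and astrocytes, went the other way without passing the test: -0.63 ± 0.28 (adjusted p = 0.0751), from 8.13 over 8.37 to 9.47 in motor neurons and from 8.35 over 9.25 to 10.02 in glia. In the transgenic extracts of the same arrays the Slc2a1 difference was -0.79 ± 0.17 and passed (adjusted p = 0.00345).

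Slc16a1 encodes MCT1. It was higher in motor neurons (7.33, median 7.62, 7.84) than in glia (6.68, median 7.21, 7.63), with overlap, by 0.42 ± 0.12 or 1.34-fold (adjusted p = 0.0116). Its 3 probes gave 0.42, 0.59 and 0.26. The difference was 0.68 in the SOD1-G93A colony (adjusted p = 0.0113) and 0.20 in the TAU-P301L colony (adjusted p = 0.305), and the difference between colonies did not pass the test (0.47, adjusted p = 1). Slc16a3 (MCT4) was at 0.08 ± 0.13, and Slc16a7, the MCT2 carrier assigned to neurons, was above background in 2 of 7 motor neuron and 2 of 8 glia extracts and was not tested.

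Lactate dehydrogenase A favours lactate formation and B is the heart-type subunit. Ldha was higher in motor neurons by 0.59 ± 0.21 (adjusted p = 0.0309), with 8.46, 9.49 and 9.95 as lowest, median and highest against 8.04, 8.65 and 9.09 in glia. This call was lost under 12 of 27 alternatives, among them 7 that left out a single pair (0.47 to 0.58, adjusted p = 0.0531 to 0.0763): SODgl 1, SODmn 4, TAUgl 2, TAUgl 4, TAUmn 1, TAUmn 2 and TAUmn 4. A dimmer second Ldha probe, above background in 4 motor neuron and 2 glia extracts, gave -0.06. Ldhb did not pass the test, at 0.19 ± 0.10, with overlapping values of 11.44 to 12.07 and 11.17 to 11.75. Of the pyruvate dehydrogenase subunits, Dlat, the acetyltransferase core, was higher in motor neurons by 0.37 ± 0.09 without overlap (adjusted p = 0.00398). Pdha1 (0.27 ± 0.14) and Pdhb (0.34 ± 0.22) did not pass. A second Pdhb probe, above background in 7 motor neuron and 5 glia extracts, gave 0.94. Without TAUgl pair 1, whose arrays opposed each other, Pdha1 passed (0.40, adjusted p = 0.00352). Pdk2, a kinase that switches the complex off, differed by 0.05 ± 0.09.

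Gpd1 and Aldoc were the members higher in glia. Gpd1 draws dihydroxyacetone phosphate out of glycolysis and passes electrons to the glycerol phosphate shuttle. It ran from 9.16 over 9.82 to 10.07 in glia and from 7.90 over 8.51 to 8.81 in motor neurons, without overlap. The difference of -1.34 ± 0.16 corresponds to 2.54-fold higher signal in glia (adjusted p = 3.91e-05). Aldoc, the brain aldolase, ran from 10.24 over 10.58 to 11.25 in glia and from 9.57 over 9.98 to 10.31 in motor neurons, so that the highest motor neuron extract reached into the glia range. It was 1.62-fold higher in glia (-0.69 ± 0.12, adjusted p = 0.00058), and a second probe gave -0.43. Scaling moved both values and turned the direction of Aldoc. With scanner-processed signals set to the 75th percentile of each channel, the median of all genes moved from 0.12 to 0.44, Gpd1 gave -0.64 (adjusted p = 0.135), Slc2a1 0.13 and Aldoc 0.20 (adjusted p = 0.63). Relative to that median Gpd1 stood at -1.08 and Aldoc at -0.25. Of the 11 tested astrocyte markers, 5 were higher in glia, led by Glul (-1.33), Mlc1 (-1.28) and Gjb6 (-1.13), and 1, Clu (0.52), was higher in motor neurons, whereas Aqp4 (0.05), Gja1 (0.16) and Aldh1l1 (0.12) did not pass the test. The part of astrocyte content in the Aldoc and Gpd1 differences was not tested.

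**Figure D2:**
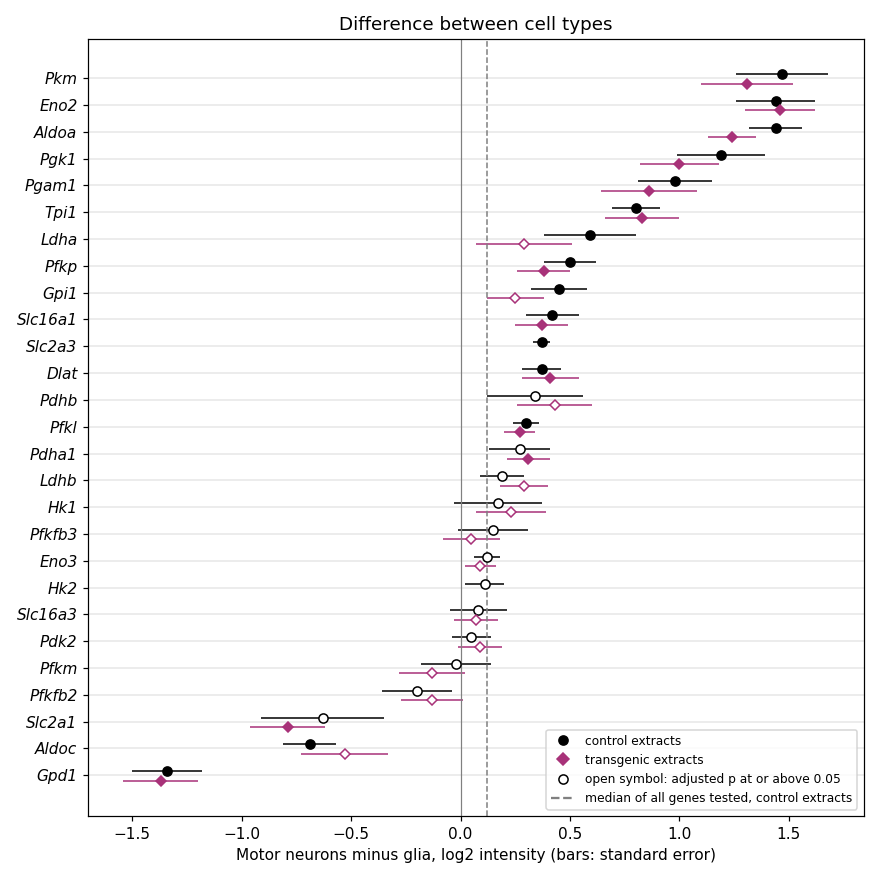
Difference between motor neurons and glia in log2 intensity for the members, with bars for the standard error, in control extracts (circles) and transgenic extracts (diamonds), filled where the adjusted p was under 0.05. Pkm, Eno2, Aldoa and Pgk1 lie at the top and Gpd1 at the bottom in both sets, the Gpd1 call being lost under percentile scaling, and the dashed line marks the median of all genes, 0.12.

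The transgenic extracts lay on the same arrays as the controls and are not independent of them in scan or dye. In them 13 of 26 members were called, 11 upward in motor neurons and 2 downward, where 38.7% of all genes were called, 27.4% upward and 11.3% downward. Pkm (1.31), Eno2 (1.46), Aldoa (1.24) and Gpd1 (-1.37) passed again. Ldha (0.29, adjusted p = 0.307), Gpi1 (0.25, adjusted p = 0.135) and Aldoc (-0.53, adjusted p = 0.0517) did not.

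Because 2 probes cannot be compared in level, isozyme use was read only as the change of the log2 difference of 2 isozymes from glia to motor neurons, with no test. The aldolases showed the largest such change. Aldoa minus Aldoc was 3.44, 3.09, 2.92, 2.82 and 3.22 in the 5 motor neuron extracts with both values. In glia it was 0.92, 1.5, 1.05, 1.27, 0.61 and 0.92. All motor neuron extracts thus lay above all glia extracts, and the mean changed by 2.05, or 4.14-fold toward Aldoa. Since the 2 genes were called in opposite directions above, their difference adds no separate support. Ldhb minus Ldha changed by -0.42, Pfkfb2 minus Pfkfb3 by -0.43 and Slc16a3 minus Slc16a1 by -0.35, each with overlapping ranges. Differences that involve Eno1, Pygm, Slc2a3, Hk2, Pfkl, Pgam2 or Slc16a7 are not given, since those probes were not well above background in most or all extracts of a cell type. The remaining members, Pgam2, Pygb, Pygm and Gys1, were too dim to test, and Eno3, muscle enolase, differed by 0.12 ± 0.06 without passing.

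Against the background of all genes tested, 11.4% had motor neuron controls wholly above glia controls, and 7 of the 27 tested members did: Pfkl, Aldoa, Tpi1, Eno2, Pkm, Dlat and Slc2a3. For Pfkl and Slc2a3, which passed the filter only through motor neurons, the filter itself favours this outcome. Glia controls lay wholly above motor neuron controls for 2.12% of genes and for 1 member, Gpd1.

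Genes adjoining the pathway were read from lists that do not overlap with the members, beside 33.9% of all genes higher in motor neurons and 13% in glia. Mitochondrial entry of pyruvate had 6 of 10 tested genes higher in motor neurons and 1 lower. Mpc2, a subunit of the mitochondrial pyruvate carrier, was highest at 1.33, and the kinase gene Pdk3 stood at 0.77, while Pcx, the anaplerotic carboxylase, was at -0.23. The redox shuttles, which return cytosolic NADH electrons to mitochondria, had 6 of 9 higher and 0 lower. They included the malate-aspartate shuttle genes Got1 (1.37), Slc25a12 (1.13) and Mdh1 (0.93), and Gpd2 (0.23), the mitochondrial partner of Gpd1. Glycogen genes had 10 of 14 higher and 1 lower, with Gbe1 (0.72) and Pygl (0.44) among the first and the phosphorylase kinase subunit Phkg1 (-0.45) alone in the second. In the transgenic extracts 6 of 13 glycogen genes were higher and 1 lower, and 4 of 9 redox shuttle genes were higher. Carriers and partners had 3 of 5 higher, including Emb (1.02), which encodes embigin, an ancillary protein of MCT2. Basigin (Bsg), the partner of MCT1 and MCT4, was not tested. The pentose phosphate branch had 2 of 6 higher (Pgd 0.53 and Tkt 0.48). Regulators had 3 of 7 higher and 1 lower, Arnt (-0.50), the partner of hypoxia-inducible factors. Other isozymes had 1 of 10 higher, the ADP-dependent glucokinase Adpgk (0.42), and 2 lower, among them Pklr (-0.24). The medians were 0.44 for pyruvate entry, 0.37 for redox shuttles, 0.35 for glycogen and -0.01 for other isozymes, beside 0.12 for all genes.

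The promoters of members are shown because glycolytic genes are textbook targets of hypoxia-inducible factor and of Sp1. Windows of 250 bases before the first listed gene start were taken from RefSeq (GRCm38.p6), and 31 of the 34 members matched (not Slc2a3, Slc16a7 and Gpd1). Searched on both strands were ACGTG (core of the hypoxia response element), GGGCGG (GC box) and CACGTG (E-box, which contains ACGTG on both strands and so counts there too). The windows below belong to Aldoa, Pgk1, Ldha and Slc16a1, higher in motor neurons, and to Aldoc, higher in glia, read 5′ to 3′ on the gene's strand, with matches in capitals. They span Aldoa chr7:126800448-126800697 (minus strand), Aldoc chr11:78322823-78323072 (plus), Pgk1 chrX:106186850-106187099 (plus), Ldha chr7:46845554-46845803 (plus) and Slc16a1 chr3:104638414-104638663 (plus).
Aldoa: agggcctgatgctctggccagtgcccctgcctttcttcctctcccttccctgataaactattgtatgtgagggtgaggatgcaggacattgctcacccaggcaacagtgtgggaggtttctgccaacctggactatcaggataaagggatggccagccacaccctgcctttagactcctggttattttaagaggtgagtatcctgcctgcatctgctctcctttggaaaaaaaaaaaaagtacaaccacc
Aldoc: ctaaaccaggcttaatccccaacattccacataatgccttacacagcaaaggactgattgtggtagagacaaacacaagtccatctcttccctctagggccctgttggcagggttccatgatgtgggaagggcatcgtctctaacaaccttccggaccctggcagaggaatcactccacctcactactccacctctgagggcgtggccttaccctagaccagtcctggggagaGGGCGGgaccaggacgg
Pgk1: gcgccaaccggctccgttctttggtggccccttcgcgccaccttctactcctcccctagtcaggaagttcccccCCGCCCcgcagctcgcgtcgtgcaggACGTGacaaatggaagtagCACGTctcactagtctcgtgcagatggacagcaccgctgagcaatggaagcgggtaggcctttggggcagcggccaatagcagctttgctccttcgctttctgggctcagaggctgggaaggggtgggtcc
Ldha: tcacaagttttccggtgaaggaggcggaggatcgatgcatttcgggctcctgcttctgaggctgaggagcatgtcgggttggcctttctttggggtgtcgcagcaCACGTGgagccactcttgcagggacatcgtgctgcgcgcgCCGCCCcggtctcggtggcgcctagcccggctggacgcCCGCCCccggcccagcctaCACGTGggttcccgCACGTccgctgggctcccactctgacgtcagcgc
Slc16a1: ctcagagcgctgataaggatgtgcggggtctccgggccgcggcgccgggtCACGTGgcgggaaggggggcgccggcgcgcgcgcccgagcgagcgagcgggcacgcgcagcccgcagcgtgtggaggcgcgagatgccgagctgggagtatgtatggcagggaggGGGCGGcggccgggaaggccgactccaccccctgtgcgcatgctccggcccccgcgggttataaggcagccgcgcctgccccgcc

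The Ldha window held 5 matches to ACGTG, 4 of them within its 2 E-boxes, and 2 GC boxes. Pgk1 held 2 matches to ACGTG and 1 GC box, Slc16a1 1 E-box (2 matches to ACGTG) and 1 GC box, Aldoc 1 GC box, and Aldoa held no match in this window. ACGTG occurred in 14 of 31 member windows (45.2%) and in 16.6% of the 27025 windows in the table. GGGCGG occurred in 16 (51.6%) against 32.9%, and CACGTG in 5 (16.1%) against 6.05%. Among the 12 matched members higher in motor neurons, 33.3% had ACGTG, and among the 18 matched members called in neither direction, 55.6%. A match is a description of letters and was not tested as a binding site. On the arrays, which the file headers place on NCBI36 (mm8), the probe of Aldoa lies at chr7:126586433-126586492 (minus strand), that of Aldoc at chr11:78142657-78142716 (plus), that of Eno2 at chr6:124726146-124726205 (minus), that of Pkm at chr9:59477106-59477165 (plus), that of Gpd1 at chr15:99552937-99552996 (plus) and that of Slc16a1 at chr3:104786079-104786138 (plus). Their place in exons or UTRs was not analysed here.

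Control mice of the 2 colonies, which differ in strain and age, were compared within each cell type. No member was called in either, at 0.234% of all genes in motor neurons (30 genes) and 0.133% in glia (17 genes, 0.0156% higher and 0.117% lower in the SOD1-G93A colony). Unadjusted p-values under 0.05 were found for 1 member in motor neurons, Gpi1 (-0.63, SOD1-G93A colony minus TAU-P301L colony, adjusted p = 0.553), and for 2 in glia, Eno3 (0.22) and Pdha1 (-0.44).

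The next comparisons set transgenic mice against littermate controls in each cell type, by the mean log2 ratio of transgenic over control. No member passed the test in any of them. SODmn had 26 members tested, SODgl 26, TAUmn 25 and TAUgl 22. Calls over all genes were as scarce: 1 of 12956 in SODmn (0.00772%), 5 of 10488 in SODgl (0.0477%, with 0.0286% higher and 0.0191% lower), 0 of 11674 in TAUmn (0%) and 0 of 8936 in TAUgl (0%) by limma. At an unadjusted p under 0.05 the counts over all genes were 1300, 1767, 505 and 1289, and over the members 1, 3, 0 and 1. Member medians were -0.06, -0.01, 0.02 and 0.08 log2 units. The 4 differences between transgenic effects, between cell types of a model and between models in a cell type, also gave 0 calls, with 1568, 611, 1385 and 686 genes at an unadjusted p under 0.05.

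**Figure D3:**
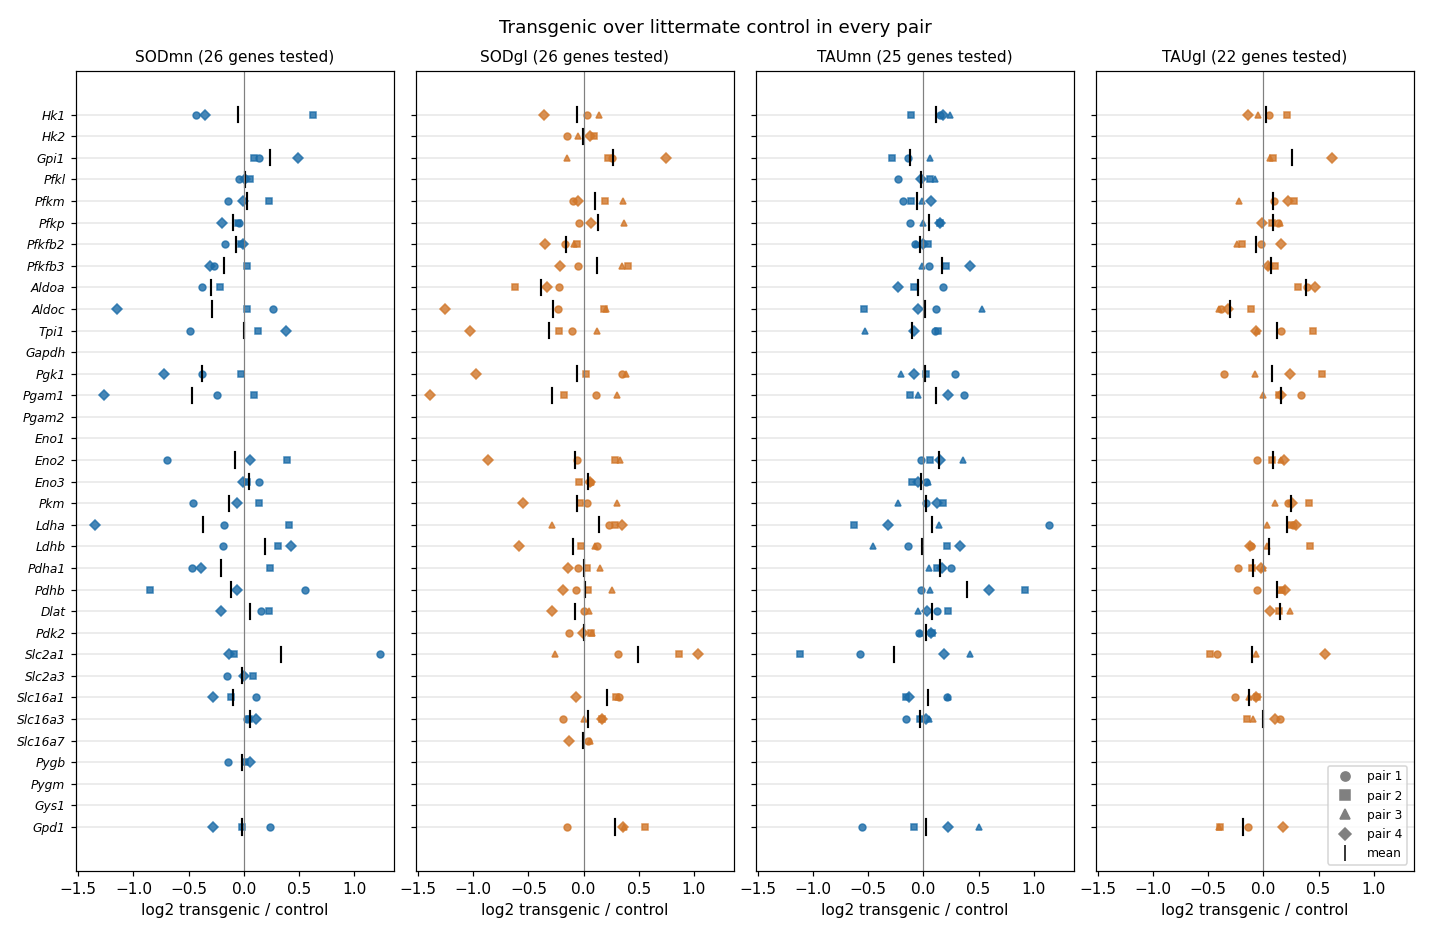
Log2 ratio of transgenic over littermate control for each tested member in each pair of SODmn, SODgl, TAUmn and TAUgl, with 1 symbol per pair and the mean as a bar. Most points lie near 0, and the points farthest to the left in SODmn and SODgl belong to pair 4.

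In SODmn, members measured in 3 pairs with 1 sign throughout were Pgk1 (-0.38, -0.03 and -0.72 in pairs 1, 2 and 4), Pfkp (-0.04, -0.05, -0.20) and Pfkfb2 (-0.17, -0.03, -0.01) below 0, and Gpi1 (0.14, 0.09, 0.49) and Slc16a3 (0.03, 0.05, 0.11) above. Over all genes, 12.9% lay below 0 in every pair and 10% above. The mean for Pgk1 was -0.38 ± 0.23 (adjusted p = 0.606), and for Gpi1 0.24 ± 0.15 (adjusted p = 0.632). Without pair 4, which held the lowest member ratios as described below, they were -0.20 and 0.12. Second probes of Pgk1 and Gpi1 gave -0.30 and -0.03. The means of Pfkp, Pfkfb2 and Slc16a3, at most 0.10 in size, lay near the resolution of dim probes. Pdha1, the pyruvate dehydrogenase subunit, was at -0.47, 0.24 and -0.39. Without pair 2 it was the single member of the pathway to pass in a transgenic comparison (-0.43, n = 2, adjusted p = 0.0207). It then also passed against TAUmn (-0.58, adjusted p = 0.0113). The genes called were then 98 and 147, where all pairs gave 1 of 12956 and 0 of 13394. Pair 2 was the only one above 0, so leaving it out makes the rest agree in sign, and these calls carry no support. A second Pdha1 probe had a SODmn mean of -0.12, beside -0.21 for the brightest.

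In SODgl, where 10.8% of genes lay below 0 in every pair and 11% above, Pfkfb2 was the 1 tested member measured in 4 pairs that kept 1 sign, at -0.17, -0.06, -0.09 and -0.35. Its mean was -0.16 ± 0.06 (adjusted p = 0.174), or -0.10 without pair 4. The dimmer Pfkfb2 probes had means of 0.04, 0.09 and -0.06. Slc16a1, the MCT1 gene, was higher in 3 pairs (0.32, 0.29, 0.31) and not in pair 4 (-0.07), a mean of 0.21 ± 0.08 (adjusted p = 0.207). The 0.29 of pair 2 averaged arrays at 1.4 and -0.81. In TAUgl the same gene was below 0 in 4 of 4 pairs (-0.26, -0.06, -0.13, -0.07), a mean of -0.13 ± 0.08 (adjusted p = 0.531) that became 0.04 with median centring in place of loess. The -0.26 of pair 1 averaged arrays at 0.30 and -0.82. The 2 dimmer Slc16a1 probes had means of 0.04 and -0.01 in TAUgl, and of 0.07 and 0.13 in SODgl. The difference between the glia of the 2 models was 0.34 ± 0.12 for Slc16a1 and did not pass (adjusted p = 0.633), nor did it without SODgl pair 4 (0.44, adjusted p = 0.451) or without SODgl pair 2 and TAUgl pair 1 (0.27, adjusted p = 0.929). Slc2a1, the GLUT1 gene, varied widely between pairs of SODgl, at 0.31, 0.86, -0.26 and 1.04 (mean 0.49 ± 0.29, adjusted p = 0.44).

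In TAUmn, Pdha1 was the 1 tested member measured in 4 pairs that kept 1 sign (0.25, 0.12, 0.05 and 0.17, mean 0.15 ± 0.09, adjusted p = 0.991), where 6.6% of all genes did so upward and 6.21% downward. A second Pdha1 probe had a TAUmn mean of 0.01. Ldha spread widely in TAUmn, from -0.63 to 1.14. In TAUgl, 10.5% of genes lay above 0 in every pair and 10.2% below. Pkm (0.22, 0.41, 0.11, 0.26) and Ldha (0.27, 0.25, 0.03, 0.30) were above 0 in 4 of 4 pairs, with means of 0.25 ± 0.12 (adjusted p = 0.351) and 0.21 ± 0.27 (adjusted p = 0.815). The 2 arrays of a pair had opposite signs for Pkm in pairs 1 (1.51 and -1.07), 3 (0.43 and -0.20) and 4 (-0.12 and 0.64), and for Ldha in pairs 3 (-0.54 and 0.59) and 4 (-0.22 and 0.82). Second probes gave means of 0.05 for Pkm and 0.03 for Ldha. Aldoc (-0.38, -0.11, -0.40, -0.32) was below 0 in 4 of 4, with a mean of -0.30 ± 0.25 (adjusted p = 0.664), and became 0.14 with median centring. Its arrays opposed each other in pair 1 (-1.42 and 0.66). A second Aldoc probe, above background in 7 motor neuron and 7 glia controls, gave a TAUgl mean of 0.02. Pdha1, at -0.23, -0.10, 0.00 and -0.02, averaged -0.09 ± 0.09 and became 0.03 with median centring. Its second probe gave 0.06. Gpi1 (0.09, 0.06, 0.62), Dlat (0.14, 0.24, 0.06) and Pfkfb3 (0.11, 0.05, 0.04) were above 0 in the 3 pairs with a value and did not pass. Dimmer probes gave -0.01 for Gpi1, 0.03 for Dlat, and -0.01 and 0.01 for Pfkfb3. In pairs 1 to 4 the mean ratio of motor neuron markers was 0.45, 0.23, -0.01 and 0.39, with 10 of 11 markers above 0. Astrocyte markers averaged -0.26, -0.17, -0.30 and -0.09, with 1 of 11 above 0, and oligodendrocyte markers -0.37, -0.24, -0.03 and -0.13, with 2 of 9 above 0. The part of cell content in these ratios was not tested.

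Aldoa is described through both of its probes. Its brightest probe was below 0 in the 3 SODgl pairs with a value (-0.22, -0.62 and -0.33 in pairs 1, 2 and 4), a mean of -0.39 ± 0.09 with an unadjusted p of 0.00147 and an adjusted p of 0.0825. It was above 0 in the same 3 pair numbers of TAUgl (0.40, 0.31 and 0.47), a mean of 0.39 ± 0.09 (adjusted p = 0.166). The difference between the 2 models was -0.78 ± 0.12, with an unadjusted p of 0.000122 that did not pass over all genes (adjusted p = 0.408). Without SODgl pair 2 and TAUgl pair 1 it was -0.66 (adjusted p = 0.562), and the mean over both probes gave -0.35 (adjusted p = 0.95). The 2 arrays behind a pair could oppose each other: in TAUgl they gave -0.47 and 1.28 in pair 1 and 1.09 and -0.16 in pair 4. Pair 3 had no mean on this probe in either model because 1 of its 2 spots was marked as an outlier, and the array that was left gave 0.42 in SODgl and 0.66 in TAUgl. The dimmer Aldoa probe had a mean in pair 3, and it lay on the other side of 0 from the other pairs of each model: SODgl gave -0.21, -0.50, 0.44 and -0.24, and TAUgl 0.34, 0.29, -0.24 and 0.20.

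The mean ratio of the motor neuron markers in the SODgl pairs was -0.16, -0.49, 0.82 and -0.06. Over the 8 glia pairs the dimmer Aldoa probe followed the marker mean with Pearson's r = 0.94 (exact permutation p = 0.00114, adjusted p = 0.0171 over 15 members) and Spearman's rho = 0.88 (exact permutation p = 0.00724, adjusted p = 0.0802). Without the 2 pairs farthest from the median marker value r was 0.92. Without SODgl pair 2 and TAUgl pair 1, whose arrays opposed each other most, it was 0.91. No other of the 15 members called between cell types passed after adjustment. Their r ran from -0.57 (Ldha) to 0.78 (Pfkl), with 0.23 for Eno2 and 0.25 for Pgk1. This relation and the use of the dimmer probe were chosen after the values had been seen. The adjustment covers neither choice, so these p-values describe the relation and do not test it. Each scan held only 2 glia pairs, too few for a value within scans. The part of motor neuron content in the Aldoa ratios was not tested.

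**Figure D4:**
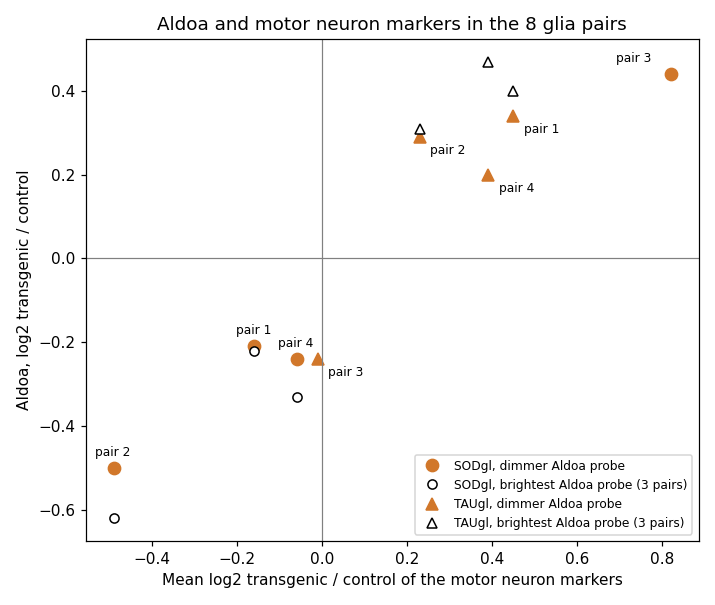
Log2 ratio of transgenic over control for Aldoa (vertical) against the mean ratio of the motor neuron markers (horizontal) in the 8 glia pairs, for the dimmer probe (filled) and the brightest probe (open, 3 pairs per model). On the dimmer probe, pairs with higher motor neuron markers tend to have higher Aldoa, and pair 3 lies apart from the other pairs of its model. The relation was chosen after the values had been seen.

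In both cell types of the SOD1-G93A line, the lowest member ratios lay in pair 4. In SODmn pair 4, Ldha was at -1.35, Pgam1 at -1.27, Aldoc at -1.15 and Pgk1 at -0.72, while Gpi1 was at 0.49. In SODgl pair 4, Pgam1 was at -1.39, Aldoc at -1.26, Tpi1 at -1.03, Pgk1 at -0.98 and Eno2 at -0.87, while Gpi1 was at 0.75 and Slc2a1 at 1.04. For Pgam1, transgenic and control levels were 9.74 and 11.01 in SODmn pair 4. They were 10.17 and 10.41 in pair 1 and 10.43 and 10.33 in pair 2. Control values of SODmn pair 4 for Pgam1 and Pgk1 (10.63) were the highest of the motor neuron controls. Ldha was at 8.43 and 9.78 in SODmn pair 4, 8.81 and 8.99 in pair 1 and 8.87 and 8.46 in pair 2. In SODgl pair 4 Pgam1 was at 8.36 and 9.75. SODgl pairs 1 to 3 had 9.67, 9.38 and 9.84 in transgenic extracts and 9.56, 9.57 and 9.54 in controls. Pgam1 and Aldoc held on both arrays of the pair, at -1.42 and -1.13 for Pgam1 and -1.23 and -1.07 for Aldoc in SODmn, and at -1.31 and -1.47 and at -1.0 and -1.52 in SODgl. In the other SOD1-G93A pairs Aldoc ran from -0.23 to 0.26 and Pgam1 from -0.24 to 0.30. These Aldoc values come from its brightest probe, with means over the pairs of -0.29 in SODmn and -0.28 in SODgl. The second Aldoc probe had means of 0 and 0.32. Ldha was not low in SODgl pair 4 (0.35), and Tpi1 was not low in SODmn pair 4 (0.38).

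More than 0.5 log2 units from 0 were 9 of 26 members in SODgl pair 4, with 11% of all genes, and 4 of 25 in SODmn pair 4, with 7.98%. SODgl pairs 1 to 3 had 0 of 26, 3 of 22 and 0 of 25 (1.28%, 7.79% and 4.19% of all genes). SODmn pairs 1 and 2 had 3 of 26 and 2 of 26 (5.62% and 3.77%). TAUmn pair 2 also had 4 of 25 (3.05%), so in motor neurons this count did not set pair 4 apart. The arrays of pair 4 agreed across dyes at r = 0.68 in SODmn and 0.50 in SODgl. Interneuron, motor neuron, astrocyte and oligodendrocyte marker means were -0.45, 0, 0.01 and -0.12 in SODmn pair 4. In the same order they were -0.05, -0.06, 0.23 and -0.06 in SODgl pair 4. The part of these in the low values was not tested. The labels do not say that pair 4 of motor neurons and pair 4 of glia came from the same mice.

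**Figure D5:**
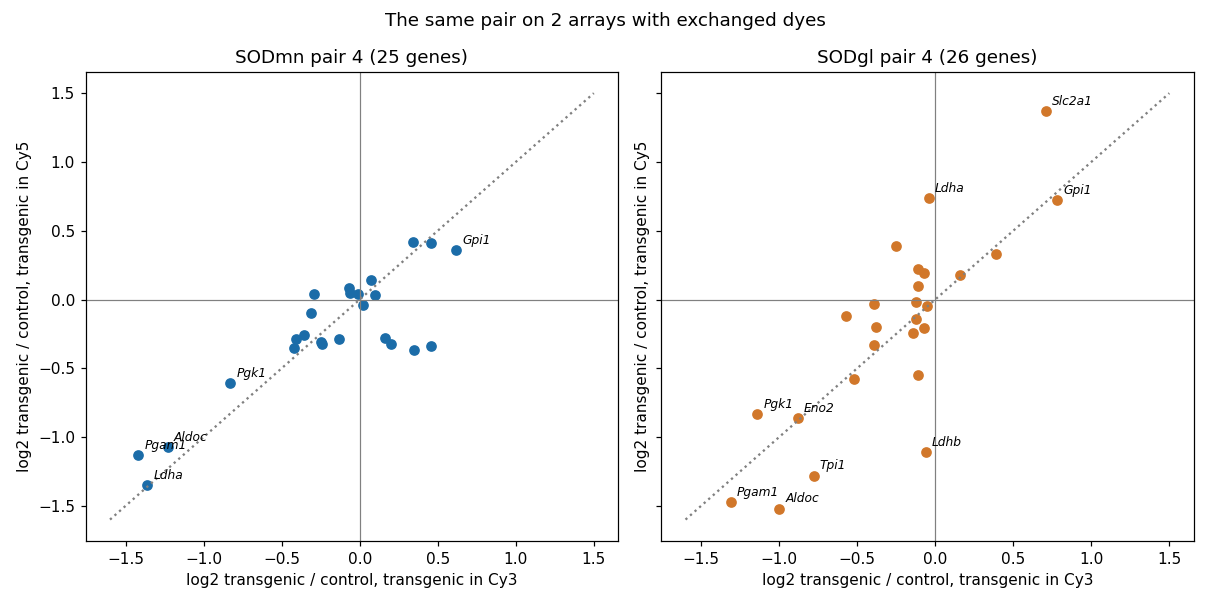
Members in pair 4 of SODmn and SODgl, with the log2 ratio of transgenic over control on the array with the transgenic extract in Cy3 (horizontal) against that on the array with it in Cy5 (vertical). Pgam1 and Aldoc lie at the lower left in both panels and Gpi1 at the upper right.

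The 7 lists of adjoining genes had 0 calls in every transgenic comparison. Their medians lay between -0.13 and 0.22 over the 7 lists and 4 comparisons. Glycogen genes above 0 numbered 1 of 13 in SODmn, 8 of 11 in SODgl, 6 of 12 in TAUmn and 9 of 10 in TAUgl, where 49.9%, 57.4%, 46.4% and 50.9% of all genes lay above 0. The glycogen medians were small, at -0.06, 0.05, 0.03 and 0.08 log2 units. Other lists had larger medians, such as -0.13 for carriers and partners in SODmn and 0.22 for redox shuttles in TAUgl. Their counts above 0 are not given here.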

How the data were processed

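Agilent 2-colour Agilent arrays were read from the deposited scanner files, which hold intensity per spot and dye and the authors' log10 ratio of red over green (Feature Extraction 8.5.1.1, per the submitters' processing notes). The deposited value table holds the same log10 ratios, all turned to transgenic over control, and served as an alternative. Intensities were corrected with normexp (offset 50) and loess in limma 3.58.1 (R 4.3.3), with control and outlier-marked spots at weight 0. The offset compresses dim probes. Ratios were turned by dye, averaged over the 2 arrays of a pair and tested in 1 fit over all pairs. Single-channel log2 levels came from Aquantile scaling, with colony as a covariate for controls. Genes needed signal well above background on both arrays in 4 of the 8 extracts of a comparison, or, for levels, in 4 control extracts of a cell type. P-values were adjusted by Benjamini-Hochberg over all genes tested, with calls under 0.05.

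The array left out was not foreseen in the planned design, and results with all 32 arrays were computed too. Probes were named by accession (23374), symbol (6733) or synonym (2919), and 8148 kept the file's name. Values per pair were given for members past the threshold and for members with 1 sign in every pair. The members, the 7 pathway lists and the 8 marker lists were chosen with earlier results of these data known. Of the marker lists not given in the results, microglia had 1 of 10 tested genes lower in motor neurons (Trem2, -0.70) and 0 higher, endothelial and pericyte 2 of 8 higher and 1 lower, red cell 0 of 2 either way, and skeletal muscle 1 of 2 higher (Tnnc2, 0.27). The labels call the pairs biological replicates and say cells were collected from each mouse. The scripts were checked on simulated data.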

Additional observations from a re-analysis of the deposited data

Results flagged for a closer look

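Among 116 groups of 4 to 10 values, 7 had 1 sample far from the rest, where chance gives about 1 in 20. In control levels, Hk2 was highest in TAUmn pair 1 (6.59, next 6.26), Pfkfb3 lowest in SODgl pair 2 (6.65, next 7.37), Pdha1 highest in TAUgl pair 1 (7.49, next 6.78) and Gpd1 lowest in TAUgl pair 4 (9.16, next 9.64). In ratios, Eno3 was lowest in SODgl pair 2 (-0.04, next 0.06), Pdhb lowest in TAUgl pair 1 (-0.06, next 0.16) and Slc16a1 lowest in SODgl pair 4 (-0.07, next 0.29). Of the 7, 4 lay in SODgl pair 2 or TAUgl pair 1, the pairs whose dye-exchanged arrays opposed each other most.

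In 2 cases every measured pair of 1 group moved one way and every pair of the other the opposite way. The share of all genes that did so was not computed, so these cases are only described. The Aldoa difference of SODgl minus TAUgl was -0.78 (limma, adjusted p = 0.408), from 3 pairs each on the brightest probe. The dimmer Aldoa probe also had a value in pair 3, at 0.44 in SODgl and -0.24 in TAUgl, and did not show this pattern. The Pdha1 difference of TAUmn minus TAUgl was 0.24 (limma, adjusted p = 0.937). A second Pdha1 probe had means of 0.01 in TAUmn and 0.06 in TAUgl.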

How the results depend on the processing

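Pkm, Eno2 and Aldoa kept their direction and call between cell types under all 27 alternatives, and across all members 30 alternative values lost a call and 16 gained one. Genes higher in glia (1667) numbered 3764 with no filter, 769 in the SOD1-G93A colony and 589 in the TAU-P301L colony. Genes higher in motor neurons (4349) numbered 2512 with detection required in both cell types, and 1947 and 2323 in those colonies, and all called genes (6016) 3749, 2716 and 2912. Members higher in glia (2) numbered 4 with no filter and 0 with processed signals at the 75th percentile, and members higher in motor neurons (13) 6 with all 32 arrays and 7 in the TAU-P301L colony.

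Direction reversed with processed signals for Aldoc (0.20), Eno3 (-0.14), Hk2 (-0.18), Pdk2 (-0.45), Pfkm (0.94), Slc16a3 (-0.02) and Slc2a1 (0.13). It reversed in the SOD1-G93A colony for Eno3 (-0.01), Slc16a3 (-0.01) and Pfkm (0.05), in the TAU-P301L colony for Pdha1 (-0.01) and Pfkfb3 (-0.07), with all 32 arrays for Hk1 (-0.01), with outlier-marked spots for Pdk2 (-0.26), and over all probes for Hk1 (-0.07), Pfkfb2 (0.16) and Pfkfb3 (-0.11). Pfkm gave 0.03 with quantile scaling and 0.01 to 0.07 without single pairs. Median centring reversed the ratios of Gpi1 in SODmn (-0.02) and of Aldoc (0.14), Pdha1 (0.03) and Slc16a1 (0.04) in TAUgl. The cause was not tested.

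SODgl calls (5) numbered 12 with offset 16, 10 with all arrays, 2 with detection in all extracts, 1 without both SOD pairs 4, 2 and 1 within scans 3 and 6, and 0 with the deposited table, the mean over probes, median centring, no filter, own pairs, processed signals, SODmn pair 3 from 1 array, or without SODgl pair 2 and TAUgl pair 1. SODmn calls (1) numbered 4 with outlier-marked spots, 2 without both pairs 4, 17 within scan 1, and 0 within scan 2, with detection in all extracts, offset 16, the deposited table, the mean over probes, median centring, no filter, own pairs, processed signals, or without SODgl pair 2 and TAUgl pair 1. TAUgl had 2 calls without SODgl pair 2 and TAUgl pair 1 and 17 without pairs 4, and TAUmn 1 without pairs 4. SODmn minus TAUmn had 4 calls with pair 3 from 1 array and 2 without pairs 4, and TAUmn minus TAUgl 1 without SODgl pair 2 and TAUgl pair 1.

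Without single pairs, calls ranged from 0 to 2 in SODgl, 1 to 98 in SODmn (members 0 to 1), 0 to 2 in TAUgl, 0 to 147 in SODmn minus TAUmn (members 0 to 1), 0 to 13 in SODmn minus SODgl, 0 to 1 in both TAUmn minus TAUgl and SODgl minus TAUgl, and between colonies 17 to 34 in motor neurons and 13 to 30 in glia.

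Replicate numbers were not treated as pairing the samples, since the labels do not say that they do and not every correlation was above 0.1: same-numbered motor neuron and glia controls correlated at -0.01, 0.23 and 0.33 in the SOD1-G93A colony and at 0.50, -0.07, 0.07 and 0.18 in the TAU-P301L colony. With the replicate block, 6403 genes were called between cell types, Slc2a1 gave -0.51 (limma, adjusted p = 0.0439) and Pfkm 0.02. Scan as a block could not be fitted between cell types, since no scan held both. Dim probes limit what can be read for Gapdh, Eno1, Slc16a7, Pgam2, Pygb, Pygm and Gys1.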
